A study of Mus musculus with 12 samples.

Results

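The genes described are Foxp3 and the 5 Ikaros family zinc finger genes of the mouse, Ikzf1 to Ikzf5, taken as the rows of the count table whose Ensembl identifier maps to those symbols. All 6 were found among the 21839 genes of the table, and all 6 passed the filter on low counts that left 11766 genes to test. Foxp3 encodes the forkhead transcription factor that fixes and maintains the regulatory T cell (Treg) programme, and mice and humans without it develop fatal autoimmunity. The Ikaros family shares zinc fingers at one end of the protein that bind DNA and others at the opposite end through which members pair with each other, and much of its action in lymphocytes is repression through chromatin complexes. Ikzf1 (Ikaros) acts throughout the lymphoid lineage, Ikzf2 (Helios) and Ikzf4 (Eos) are enriched in Tregs, Ikzf3 (Aiolos) is best known from B cells and some helper T cells, and Ikzf5 (Pegasus) is the most distant member. Eos binds Foxp3 protein and helps it to silence genes, and Helios supports the stability of Tregs under inflammation.

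The libraries came from C57BL/6 mice in which both copies of Atg5, a gene needed for autophagy, carry loxP sites. TG mice (Atg5 flox/flox CD11c Cre +/-) also carry Cre recombinase driven by the CD11c promoter, which deletes Atg5 where CD11c is active, chiefly in dendritic cells. Littermates without Cre (Atg5 flox/flox CD11c Cre -/-) are called WT, so the floxed gene is common to all groups. CD4 T cells from the spleen together with cervical, brachial and inguinal lymph nodes were sorted on a further surface marker and on high or low CD25, the interleukin-2 receptor chain encoded by Il2ra, with no Foxp3 stain or reporter named. Each of the 4 groups (WT High, WT Low, TG High and TG Low) held 3 RNA-seq libraries, 12 in all. The labels give no age and do not say that replicates are separate animals. The p-values therefore reflect the spread among the libraries alone, and that spread may be technical. The comparisons ask how these genes differ between the CD25 gates and whether loss of Atg5 in dendritic cells changes them.

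Total counts ran from 6767828 (TG High replicate 2) to 23942479 per library. Libraries with the same replicate number varied together, so tests are reported both without and with a block for replicate number. The 8 defining CD4 T cell genes (Cd3e, Cd3d, Cd3g, Cd4, Trac, Lck, Cd28 and Cd5) summed to 6420 to 8055 CPM in every library, where CPM is a gene's count relative to the TMM-scaled size of its library. Summed B cell markers (14 genes) ran from 367 to 1131 CPM in the 6 CD25 High and from 441 to 1198 CPM in the 6 CD25 Low libraries, myeloid and dendritic cell markers (15 genes) from 7.96 to 36.9 and from 7.22 to 141 CPM, CD8 T and NK cell markers (12 genes) from 69.8 to 121 and from 57.9 to 149 CPM, and plasma cell genes (6 genes, among them the T cell genes Irf4 and Prdm1) from 200 to 283 and from 183 to 280 CPM. Between 0 and 1 of the B cell markers, 0 and 11 of the myeloid and 0 and 4 of the CD8 T and NK markers stood at 0 in a library. The part of such cells in the results below was not tested.

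Promoters are shown for Foxp3, which differed between the gates, and for Ikzf5, which did not and whose window also holds a STAT-type match. The windows are the 250 bases before a RefSeq transcript start on GRCm38.p6, 5′ to 3′ on the gene's strand, and 3 of the 6 genes (Foxp3, Ikzf1 and Ikzf5) had windows. Capitals mark letters that match, on either strand, one of 7 motifs searched: GGGAA (the Ikaros family core), TTCNNNGAA (STAT), GTAAACA (forkhead), TGTGGT (Runx), TGANTCA (AP-1), GGAAAA (NFAT) and TATAAA (the TATA box, added after the windows were seen).
Foxp3, chrX:7579426-7579675, plus strand: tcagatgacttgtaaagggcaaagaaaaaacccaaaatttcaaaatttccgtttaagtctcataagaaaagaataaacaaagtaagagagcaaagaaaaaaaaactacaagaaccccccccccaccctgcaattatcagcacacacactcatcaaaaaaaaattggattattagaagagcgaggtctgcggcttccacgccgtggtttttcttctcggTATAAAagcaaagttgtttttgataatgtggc
Foxp3, second start, chrX:7580233-7580482, plus strand: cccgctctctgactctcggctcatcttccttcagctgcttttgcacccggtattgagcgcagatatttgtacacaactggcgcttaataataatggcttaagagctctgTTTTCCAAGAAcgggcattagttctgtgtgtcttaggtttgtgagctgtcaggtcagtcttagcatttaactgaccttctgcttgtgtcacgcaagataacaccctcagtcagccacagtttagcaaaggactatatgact
Ikzf5, chr7:131410479-131410728, minus strand: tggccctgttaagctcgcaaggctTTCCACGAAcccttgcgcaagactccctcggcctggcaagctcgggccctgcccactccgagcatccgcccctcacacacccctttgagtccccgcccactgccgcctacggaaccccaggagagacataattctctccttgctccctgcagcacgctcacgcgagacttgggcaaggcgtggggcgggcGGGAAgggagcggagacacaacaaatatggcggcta

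The first Foxp3 window held a TATA box at bases -32 to -27 from the start and none of the other 6 motifs. TATAAA was present in 12.4% of all 32851 windows of this length. The second Foxp3 window held a STAT match at -139 to -131, which overlaps an NFAT match at -141 to -136. The STAT letters were in 7.02% and the NFAT letters in 20.4% of all windows. The Ikzf5 window held a STAT match at -226 to -218 and an Ikaros core at -36 to -32. The Ikaros core, a short motif, was in 56.2% of all windows. Of the 2 Ikzf1 windows, one had 82% G or C and no match and the other held 2 Ikaros cores. GTAAACA (3.17% of windows), TGTGGT (14%) and TGANTCA (6.75%) matched in none of the 5 windows of these genes. These matches describe letters and say nothing of binding.

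Level per length, from the gene models of GENCODE vM21 on GRCm38, ordered the genes as follows. Foxp3 stood at 290 ± 51.8 CPM per kilobase of exon (mean ± SD over the 12 libraries), Ikzf1 at 98.8 ± 6.2, Ikzf4 at 34.8 ± 6.68, Ikzf2 at 17.5 ± 4.26, Ikzf3 at 13.7 ± 1.87 and Ikzf5 at 4.23 ± 0.372. The lowest Foxp3 library (215) lay above the highest Ikzf1 library (106), and the lowest Ikzf1 library (86.7) above the highest Ikzf4 library (42.5). Ikzf4 and Ikzf2 overlapped (25.2 to 42.5 against 11 to 27.7), and so did Ikzf2 and Ikzf3 (11.2 to 16.6). The last order depends on the gene model: per kilobase of the longest coding transcript, Ikzf3 stood at 32.7 ± 4.47 and Ikzf2 at 21.8 ± 5.33, because the 8754 exon bases annotated for Ikzf3 exceed its coding transcript of 3658 bases. Ikzf5 is the least certain value. Of its exon bases, 4652 (81.3%) are also exon of Pstk on the opposite strand in that annotation, the library chemistry does not mark strand, and Pstk stood at 14.4 to 29.7 CPM.

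**Figure D1:**
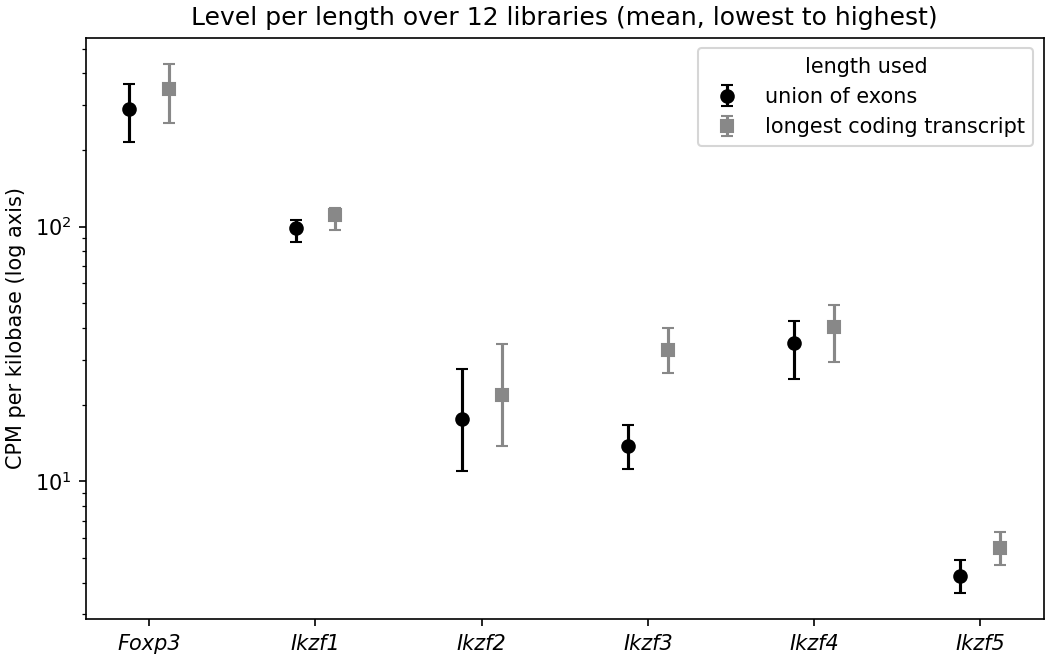
Level of each gene per kilobase, in TMM-scaled CPM per kilobase on a log axis, over 12 libraries; points are means and bars run from the lowest to the highest library, for exon union length and for the longest coding transcript. Foxp3 stands highest (mean 290), Ikzf1 next (98.8), and Ikzf3 changes most with the length used (13.7 or 32.7).

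Foxp3 (ENSMUSG00000039521, X chromosome, 7573644 to 7595245, plus strand, protein coding) was abundant in both gates and higher in CD25 High. It stood at 1454, 1662 and 1532 CPM in WT High replicates 1, 2 and 3 and at 983, 1185 and 1090 CPM in WT Low. In TG it stood at 1524, 1412 and 1639 CPM in High and at 1130, 1098 and 1193 CPM in Low. All 6 CD25 High libraries lay above all 6 CD25 Low libraries, in WT and in TG, and the means were 1537 ± 99 and 1113 ± 77.2 CPM (SD, n = 6 each). Within pairs of the same genotype and number, High exceeded Low in 6 of 6, by log2 differences of 0.36 to 0.56. In a bulk library, fewer Foxp3-expressing cells and less Foxp3 RNA per cell cannot be told apart.

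Averaged over the genotypes, Foxp3 was 1.38-fold higher in CD25 High (log2 0.47, SE 0.07, edgeR quasi-likelihood test with Benjamini-Hochberg adjustment, adjusted p = 0.0115; adjusted p = 8.46e-05 with the block). Within a genotype it passed in edgeR with the block and not without it, and it passed in DESeq2 in both genotypes without the block. In WT it was 1.43-fold higher (log2 0.51, edgeR adjusted p = 0.118 without and 0.00212 with the block) and in TG 1.34-fold (log2 0.42, 0.303 and 0.0114 likewise). The TG call with the block was lost when TG High replicate 1, TG High replicate 3 or TG Low replicate 2 was left out (adjusted p = 0.105, 0.0801 and 0.0686), at log2 changes of 0.37 to 0.38. Parts of Foxp3's exons, 590 bases (12.9%) and 266 bases (5.81%), are shared with Ccdc22 and Ppp1r3f on the opposite strand. Ccdc22 had 35.8 to 59.6 CPM and was lower in CD25 High (log2 -0.38, adjusted p = 0.00649 with the block, 0.17 without), and Ppp1r3f had 52.3 to 78.5 CPM (log2 -0.01). Flicr and Gm36995 also overlap its exons in the annotation and are not rows of the table.

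Ikzf4 (ENSMUSG00000002578, chromosome 10, 128630843 to 128645991, minus strand, protein coding) followed the same pattern as Foxp3. Eos, its product, joins Foxp3 in repressing target genes together with the corepressor CtBP1. Its level was 253, 245 and 255 CPM in WT High replicates 1, 2 and 3 and 164, 151 and 201 CPM in WT Low. It was 245, 210 and 252 CPM in TG High and 168, 164 and 194 CPM in TG Low. Again all 6 CD25 High libraries exceeded all 6 CD25 Low libraries, though TG High replicate 2 (210 CPM) and WT Low replicate 3 (201 CPM) lay close. The High to Low difference was positive in 6 of 6 pairs, from log2 0.34 to 0.69.

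Ikzf4 was 1.4-fold higher in CD25 High over both genotypes (243 ± 16.6 against 174 ± 19.4 CPM, SD, n = 6 each; log2 0.48, SE 0.08, edgeR adjusted p = 0.025, and 5.63e-05 with the block). Without the block its call was lost in 8 of 12 settings that left out 1 library (WT High replicates 1 and 3, WT Low 1 and 2, TG High 1 and 3, TG Low 1 and 2; adjusted p up to 0.1), and with the block in none of the 12. In WT the log2 change was 0.54 (edgeR adjusted p = 0.328, and 0.00115 with the block) and in TG 0.43 (0.49 and 0.0102). In TG with the block, leaving out TG High replicate 1 or TG Low replicate 1 ended the call (adjusted p = 0.0928 and 0.0952). Its exons overlap only Gm26876, which is not a row of the table.

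Foxp3 and Ikzf4 were thus the 2 of 6 genes past the threshold in this comparison, both higher. Of all 11766 tested genes, 0.518% were called without the block (0.348% higher, 0.17% lower) and 5.88% with it (3.26% higher, 2.63% lower). Every CD25 High library lay above every CD25 Low library for 0.952% of the tested genes, and below for 0.705%. Without the block, 0 of the 6 were called by edgeR in either genotype alone, where 0.0425% of genes in WT and 0.0085% in TG were called higher. At an unadjusted edgeR p under 0.05 there were 2 of the 6 in each genotype. Of all 11766 genes, 391 in WT and 578 in TG met that limit. DESeq2 without the block called 2 of the 6 in each genotype, beside 46 of all genes in WT and 63 in TG. With the block 1.63% of genes were called in WT (0.994% higher, 0.637% lower) and 1.68% in TG (0.986% higher, 0.697% lower), and Foxp3 and Ikzf4 were called in both. The difference of the gate effects between the genotypes was log2 -0.09 for Foxp3 and -0.12 for Ikzf4 (edgeR adjusted p = 1 for both).

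**Figure D2:**
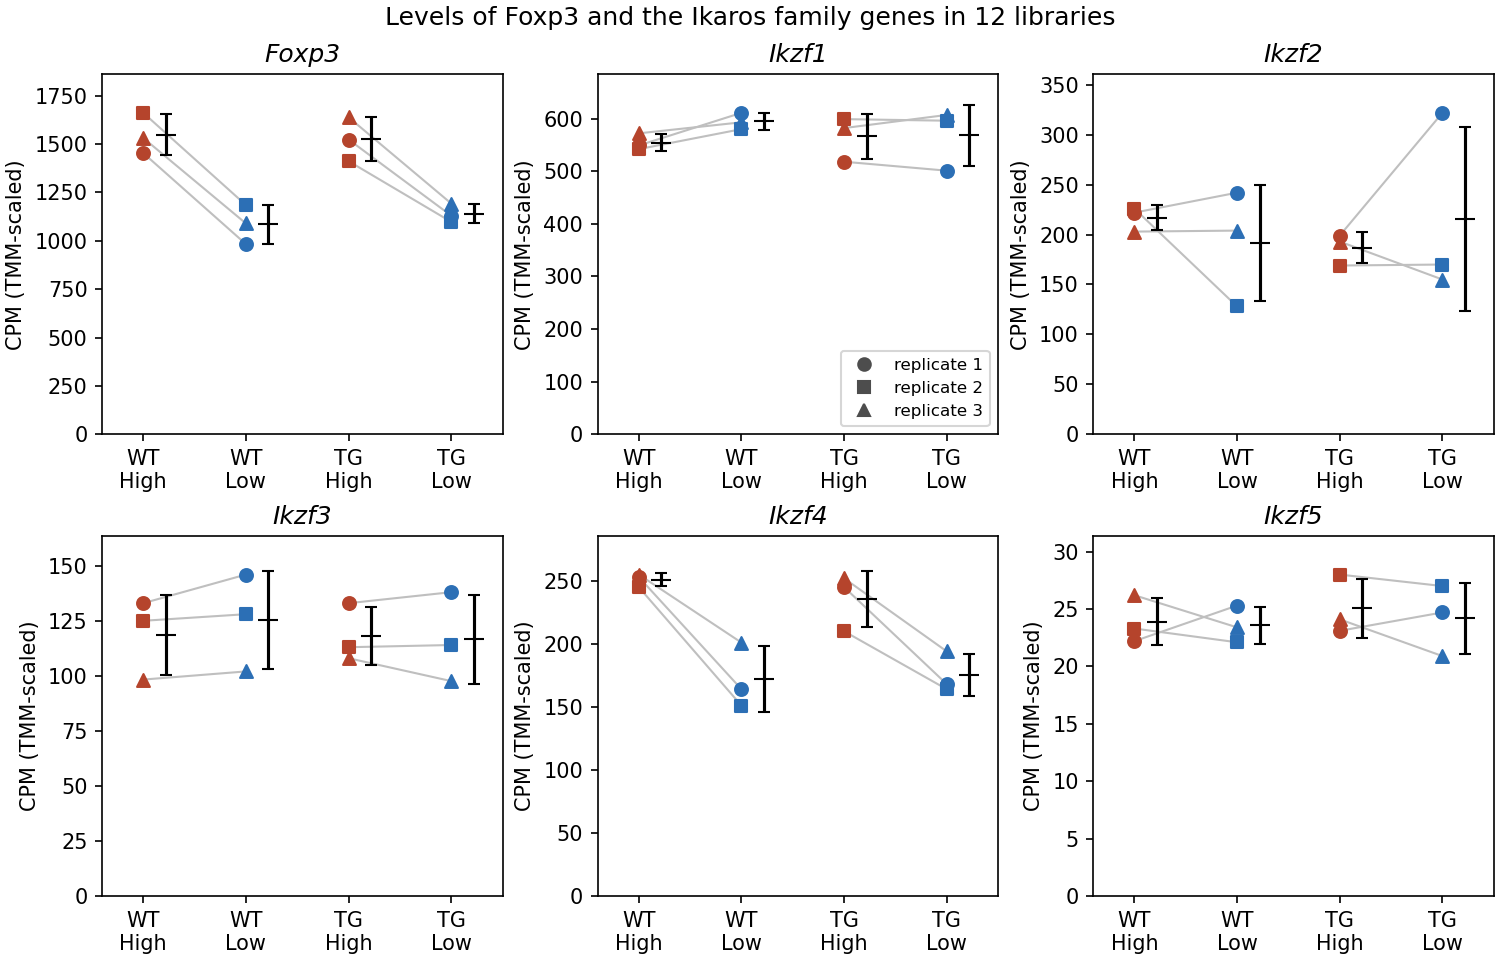
TMM-scaled CPM of the 6 genes in each of the 12 libraries (red CD25 High, blue CD25 Low; symbols mark replicate numbers, grey lines join High and Low of the same genotype and number, black bars are mean ± SD, n = 3). Foxp3 (High 1412 to 1662, Low 983 to 1193 CPM) and Ikzf4 (High 210 to 255, Low 151 to 201 CPM) separate by gate in WT and in TG. The gates of the other 4 genes overlap over the 12 libraries.

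Ikzf1 (ENSMUSG00000018654, chromosome 11, 11685003 to 11772926, plus strand, protein coding) had the narrowest spread of the 6, with a coefficient of variation of 6.28% over the 12 libraries against 17.9% for Foxp3. Ikaros recruits the NuRD chromatin remodeller and sets thresholds of T cell activation. It stood at 549, 542 and 572 CPM in WT High, 611, 580 and 593 in WT Low, 518, 599 and 582 in TG High and 501, 596 and 607 in TG Low (replicates 1, 2 and 3). Within a genotype Ikzf1 was not called between the gates. The High minus Low change with the block was log2 -0.10 in WT (edgeR adjusted p = 0.829) and -0.00 in TG (0.995). The High minus Low change over both genotypes was log2 -0.05 (SE 0.06, edgeR adjusted p = 0.937), with a normal 95% interval of 0.89 to 1.04-fold in the fit with the block.

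Ikzf2 (ENSMUSG00000025997, chromosome 1, 69531214 to 69687245, minus strand, protein coding) varied most, with a coefficient of variation of 24.4%, and its spread lay in CD25 Low. Helios marks most Tregs that arise in the thymus and is also induced by T cell activation. It stood at 222, 226 and 203 CPM in WT High and at 199, 169 and 193 in TG High (replicates 1, 2 and 3), a range of 169 to 226 with an SD of 21. In WT Low it stood at 242, 128 and 204 CPM and in TG Low at 322, 170 and 155, a range of 128 to 322 with an SD of 70.3. The highest of the 12 libraries was TG Low replicate 1 and the lowest WT Low replicate 2, so both extremes were in the same gate. TG Low replicate 1 also had the highest summed B cell (1198 CPM), myeloid (141 CPM) and CD8 T and NK cell markers (149 CPM). Their part in the Ikzf2 values was not tested.

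Over both genotypes the High minus Low change of Ikzf2 was log2 -0.01 (SE 0.2, edgeR adjusted p = 0.999) and 0.04 with the block (0.82 to 1.29-fold, adjusted p = 0.94). Its direction turned with single libraries. In WT the change was 0.18 with all libraries and -0.04 without WT Low replicate 2, and in TG it was -0.2 with all libraries and 0.2 without TG Low replicate 1. The difference of the genotype effects between the gates had the largest size of the 6 genes, log2 -0.39 without the block and -0.38 with it. The 95% interval with the block was -1.03 to 0.27 (edgeR adjusted p = 1). The gate intervals of Ikzf2 with the block were 0.85 to 1.61-fold in WT and 0.65 to 1.24-fold in TG, so in WT an increase of the size seen for Foxp3 and Ikzf4 (1.43 and 1.47-fold) lay within it.

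Ikzf3 (ENSMUSG00000018168, chromosome 11, 98464902 to 98546031, minus strand, protein coding) varied with the replicate number and not detectably with gate or genotype. Aiolos is needed for B cell maturation and silences Il2 in some helper T cells. Replicate 1 libraries stood at 133 (WT High), 146 (WT Low), 133 (TG High) and 138 CPM (TG Low). Replicate 2 libraries stood at 125, 128, 113 and 114 CPM in the same order, and replicate 3 libraries at 98.3, 102, 108 and 97.6 CPM. Ikzf3 was called for the replicate number in the blocked fit (edgeR, 2 degrees of freedom, adjusted p = 0.000466), as were 34.3% of all tested genes. The Ikzf3 call held in 12 of 12 settings with 1 library left out.

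Ikzf4 also differed between the numbers (means of 208, 193 and 225 CPM for numbers 1, 2 and 3; edgeR adjusted p = 0.0352), but leaving out 1 library ended that call in 8 of 12 settings (up to adjusted p = 0.157). The 2 genes called of 6 compare with 34.3% of all tested genes called, so the count is near the background. Foxp3 (edgeR adjusted p = 0.445), Ikzf1 (0.348), Ikzf2 (0.157, with 246, 173 and 189 CPM for numbers 1, 2 and 3) and Ikzf5 (0.81) did not pass. Other cell markers moved with the number. Summed B cell markers ran from 765 to 1198 CPM in replicate 1, 525 to 619 in replicate 2 and 367 to 531 in replicate 3, and 12 cell cycle genes from 245 to 479, 56.1 to 69.1 and 26.1 to 30.5 CPM. Their part in the Ikzf3 difference was not tested. Between the gates Ikzf3 differed by log2 -0.03 (edgeR adjusted p = 0.989; 0.92 to 1.06-fold with the block).

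**Figure D3:**
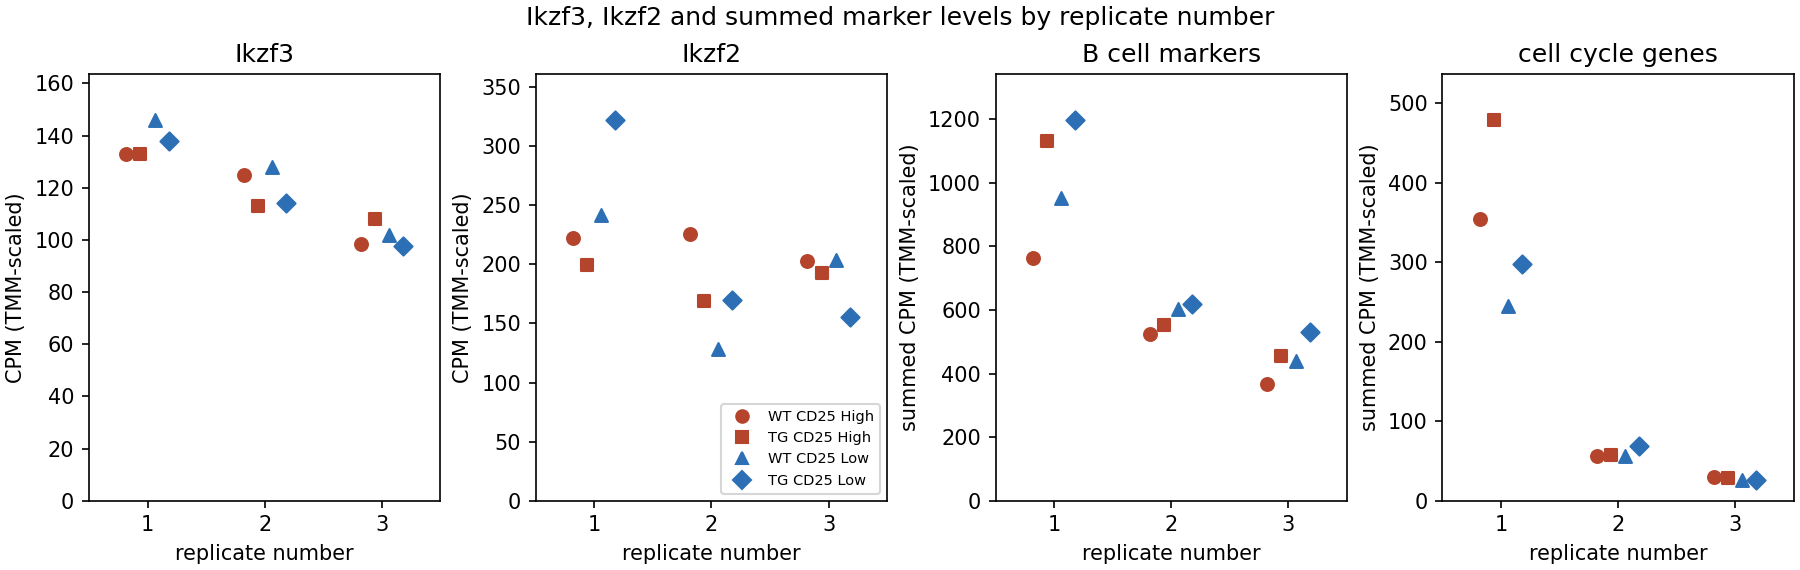
Ikzf3 and Ikzf2 (TMM-scaled CPM), and summed B cell marker and cell cycle gene levels (summed TMM-scaled CPM), by replicate number; each point is 1 library, red CD25 High and blue CD25 Low. Ikzf3 falls into separate ranges for the 3 numbers (133 to 146, 113 to 128 and 97.6 to 108 CPM), and the marker sums are highest in replicate 1.

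Ikzf5 (ENSMUSG00000040167, chromosome 7, 131388652 to 131410521, minus strand, protein coding) was the lowest of the 6 at 20.9 to 28 CPM, with a coefficient of variation of 8.79%. Its change between gates was log2 0.03 (SE 0.09, edgeR adjusted p = 0.984; 0.91 to 1.15-fold with the block). Given the exon bases it shares with Pstk, reads of the pair may be mixed or dropped.

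Ratios within a library do not depend on scaling between libraries. The count of Ikzf4 per Foxp3 count was 14.7% to 17.4% in WT High, 12.8% to 18.4% in WT Low, 14.9% to 16.1% in TG High and 14.9% to 16.3% in TG Low. High minus Low of this log2 ratio was 0.02 ± 0.13 (SD over 6 pairs), positive in 3 of 6 pairs (two-sided exact permutation test swapping gates within pairs, p = 0.688). Pairwise differences ran from -0.15 to 0.20. In 6 of 6 pairs the CD25 High library had the lower Ikzf1 to Foxp3 ratio (32.6% to 42.5% against 44.3% to 62.2%, log2 -0.52 ± 0.13, exact p = 0.0312). That is the smallest p the test can give, and adjusted over the 4 ratios it was 0.0625, which does not pass. Ikzf1 itself differed by log2 -0.05 between the gates, so this ratio restates the Foxp3 difference and is no separate result. The Ikzf2 to Foxp3 ratio was lower in 5 of 6 pairs (11.7% to 15.3% against 10.8% to 28.4%, log2 -0.42 ± 0.49, exact p = 0.0938, adjusted p = 0.125).

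Il2ra, whose product set the gates, differed by log2 1.00 (edgeR adjusted p = 0.00251), beside 0.47 for Foxp3. Its mean was 1186 ± 86.2 CPM in the CD25 High libraries and 591 ± 107 CPM in the CD25 Low libraries (SD, n = 6 each). The Il2ra to Foxp3 ratio was higher in CD25 High in 6 of 6 pairs, by log2 0.34 to 0.74 (mean 0.55 ± 0.19, 1.47-fold, exact p = 0.0312, adjusted p = 0.0625). Since the gates were cut on CD25, the Il2ra difference checks the sort and is no finding. The 6 pairs come from 3 replicate numbers and are not fully independent.

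**Figure D4:**
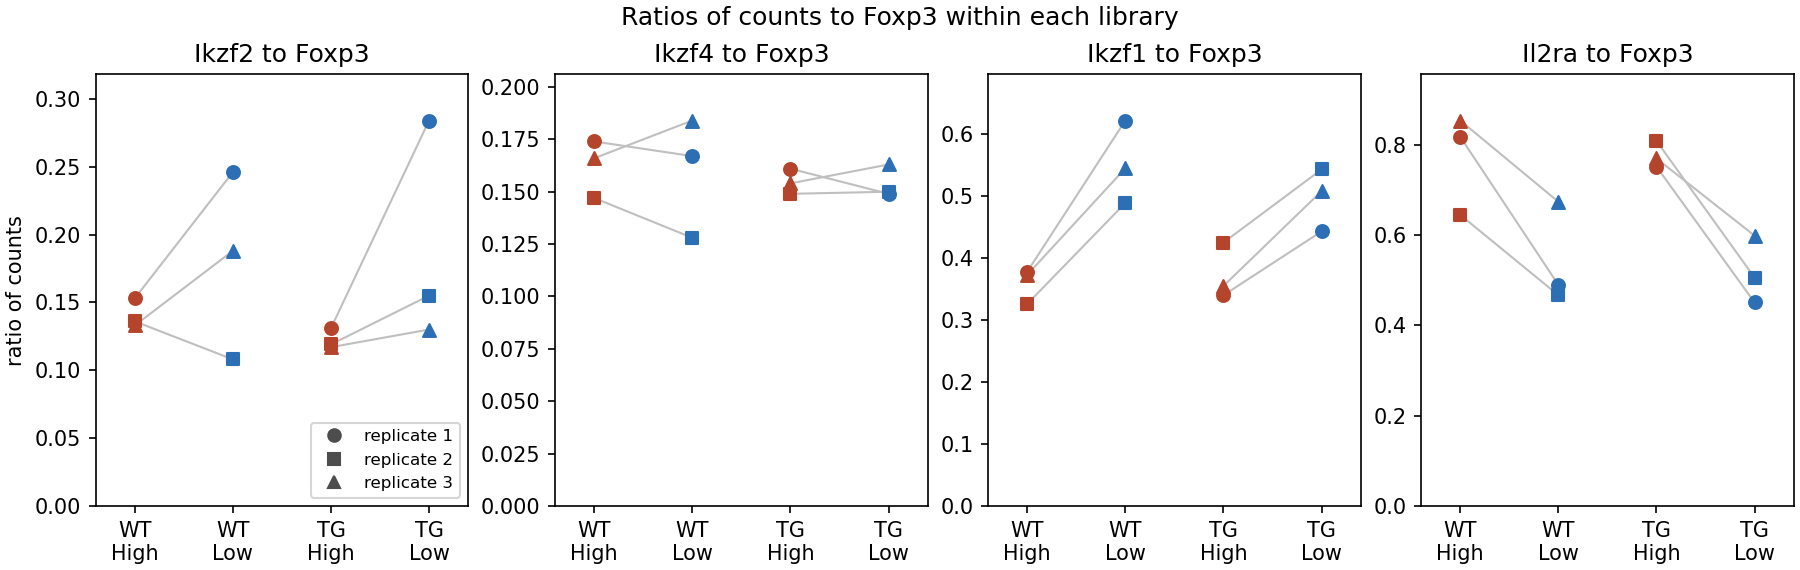
Ratio of counts to Foxp3 counts within each library (no unit), for Ikzf2, Ikzf4, Ikzf1 and Il2ra; red CD25 High, blue CD25 Low, symbols mark replicate numbers and lines join pairs. The Ikzf4 ratio stays at 0.128 to 0.184 in both gates, the Ikzf1 ratio is lower and the Il2ra ratio higher in CD25 High in every pair. The lower Ikzf1 ratio restates the Foxp3 difference.

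Genotype made no detectable difference to any of the 6 genes. Over both gates TG minus WT was log2 0.02 for Foxp3, -0.02 for Ikzf1, -0.02 for Ikzf2, -0.06 for Ikzf3, -0.03 for Ikzf4 and 0.05 for Ikzf5. The count of called members was 0 in each genotype comparison with edgeR and with DESeq2, without and with the block. In edgeR 0 of 6 had an unadjusted p under 0.05. Of all tested genes, edgeR called 0% without the block and 0.051% with it over both gates, and 0% within each gate in both fits. Over both gates 163 had an unadjusted edgeR p under 0.05 without the block and 781 with it. DESeq2 called 1 of all genes over both gates without the block and 36 with it. Within High it called 0 and 7, and within Low 0 and 2. The 0 of 6 is thus near the background. In 95% intervals with the block, TG over WT was 0.94 to 1.10-fold for Foxp3, 0.91 to 1.06 for Ikzf1, 0.78 to 1.22 for Ikzf2, 0.90 to 1.04 for Ikzf3, 0.91 to 1.06 for Ikzf4 and 0.91 to 1.16 for Ikzf5. Ikzf2 thus had the widest interval. These fits treat High and Low libraries of the same genotype and number as independent. For Foxp3, TG minus WT was log2 0.07, -0.24 and 0.10 in High and 0.20, -0.11 and 0.13 in Low (replicates 1, 2 and 3). The gates thus moved together for Foxp3, but not for Ikzf2 (-0.16, -0.42 and -0.08 in High, 0.41, 0.41 and -0.40 in Low). Where gates move together, intervals over both gates may be too narrow.

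Within the gates the intervals were wider. In CD25 High, Foxp3 averaged 1525 ± 114 CPM in TG and 1550 ± 105 in WT, and in CD25 Low 1140 ± 48.7 and 1086 ± 101 (SD, n = 3 each). Ikzf4 averaged 236 ± 22.1 and 251 ± 5.28 CPM in High and 176 ± 16.4 and 172 ± 25.7 in Low. Ikzf2 averaged 187 ± 16.1 in TG High and 217 ± 12.1 in WT High, where TG was lower in all 3 numbered pairs (log2 -0.42 to -0.08), and 215 ± 92.3 in TG Low against 191 ± 58.2 in WT Low. The TG over WT intervals of Ikzf2 with the block were 0.62 to 1.17-fold in High and 0.81 to 1.52-fold in Low. None passed (edgeR adjusted p = 1 for each without the block).

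**Figure D5:**
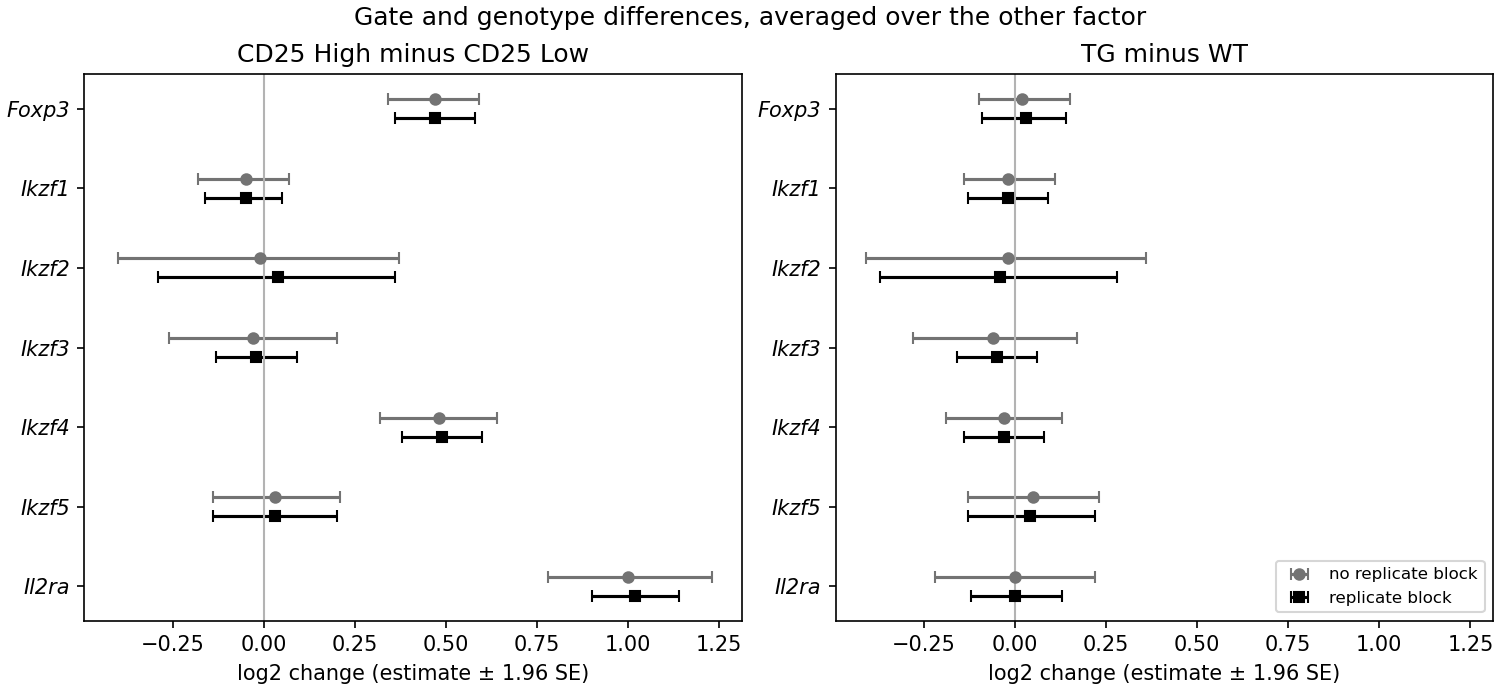
Log2 changes (points) with normal 95% intervals (bars) of the 6 genes and Il2ra, for CD25 High minus Low and for TG minus WT, each averaged over the other factor, from edgeR without (grey) and with (black) the replicate block. Foxp3 (0.47) and Ikzf4 (0.48) lie above 0 in the gate comparison, and all intervals in the genotype comparison include 0.

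Genes of the Foxp3 pathway were examined as lists in the gate comparison over both genotypes, beside 3.26% of all genes called higher and 2.63% lower with the block (0.348% and 0.17% without). All lists were chosen with earlier results of these data known. Of 18 genes that are higher with Foxp3, 6 were higher without the block and 14 with it, and 0 were lower (median log2 0.42 with the block, all genes 0.00). That list holds Ikzf2, Ikzf4 and Il2ra. Ikzf4 and Il2ra are counted in the 6 and in the 14, and the rise of Il2ra follows from the sort on CD25. The 4 with the smallest p were Il2rb, another interleukin-2 receptor chain (1875 ± 48.9 against 1040 ± 82.7 CPM), Il2ra, Lrrc32, which anchors latent TGF-beta (631 ± 97.2 against 324 ± 70.4 CPM), and the receptor gene Gpr83 (484 ± 22.9 against 229 ± 41 CPM). Ikzf2 was among the 4 of 18 that did not pass. Of 12 genes repressed by Foxp3, 11 were tested, 2 were lower without and 4 with the block, and 0 were higher (median log2 -0.21). These were Cd40lg, a helper ligand (30.7 ± 4.37 against 45.9 ± 6.69 CPM), Dapl1 (11.7 ± 3.56 against 26.5 ± 2.8 CPM), the phosphodiesterase gene Pde3b (8.07 ± 1.76 against 21.5 ± 8.33 CPM) and the chromatin organiser gene Satb1 (log2 -0.21).

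Of 26 genes whose products act on the Foxp3 gene, 1 was called without the block and 4 with it, 3 higher and 1 lower (median log2 0.01). Rel, the NF-kB subunit that acts at a Foxp3 enhancer, stood at 112 ± 12.3 CPM in High and 78.8 ± 7.08 in Low (SD, n = 6 each; log2 0.51, edgeR adjusted p = 0.0258, and 0.000721 with the block). Stat5a, which carries the interleukin-2 signal, differed by log2 0.26 (edgeR adjusted p = 0.138, and 0.00929 with the block) and Gata3 by 0.18 (0.442 and 0.0352). Satb1 was the lower one (0.707 and 0.0162). Of 20 genes for proteins that bind Foxp3, 0 were called without the block, by edgeR, and 3 with it. These were Gata3, higher, and the acetyltransferase gene Crebbp (log2 -0.24, adjusted p = 0.0252) and the deubiquitinase gene Usp7 (log2 -0.25, 0.0259), lower.

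Partners of the Ikaros proteins were called at about the share of all genes with the block (5.88%). Of 18 genes of the NuRD, Sin3 and CtBP corepressor complexes, 0 were called without the block and 1 with it, the deacetylase gene Hdac1 (73.8 ± 6.34 CPM in High, 59.7 ± 3.79 in Low, SD, n = 6 each; log2 0.30, edgeR adjusted p = 0.115 without and 0.0063 with the block). The 5 genes of the cereblon ubiquitin ligase, through which thalidomide-type drugs destroy human Ikaros and Aiolos, had 0 calls in edgeR with and without the block (median log2 0.06). In TG minus WT over both gates, 0 genes of these 6 lists were called in either edgeR fit. Among the other cell markers, Cd22 of the B cell list was called higher in TG with the block. The median log2 change of TG minus WT was 0.71 in both fits for 14 tested B cell genes and 1.10 without and 0.71 with the block for 6 tested myeloid genes (all genes 0.01 and 0.00). Summed B cell markers ran from 457 to 1198 CPM in the 6 TG libraries and from 367 to 954 CPM in the 6 WT libraries, and summed myeloid markers from 7.22 to 141 and from 9.59 to 79.4 CPM. Their part in the genotype values of the 6 genes was not tested.

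Other cell markers in the gate comparison had 0 calls without the block in the B cell, plasma cell, myeloid, CD8 T and NK and cell cycle lists. With it, Cd22 (log2 -0.66) of 14 tested B cell genes, Csf1r and C1qa of 6 tested myeloid genes and Klrk1, Ncr1, Klrb1c, Klrd1 and Prf1 of 11 tested CD8 T and NK genes were lower (Prf1 was named after its values were seen), Top2a of 12 cell cycle genes was higher (log2 0.63), and 0 of 5 tested plasma cell genes were called. Of the 8 CD4 T cell genes, Trac was lower in both fits (474 ± 26.9 against 608 ± 52.5 CPM) and Cd28 with the block (log2 -0.19). The myeloid and NK genes changed by far more than the members, at low levels and unevenly over the libraries. Csf1r stood at 15.5 CPM in WT Low and 21.2 in TG Low replicate 1, and at 0.107 and 1.59 in WT and TG High replicate 1. In all libraries of numbers 2 and 3 it stood at 0 to 0.489 CPM. Ncr1 stood at 8.41 and 4.61 CPM in WT and TG Low replicate 1, 2.35 and 0.404 in replicate 2, and 0 in replicate 3. The SD over the 6 Low libraries was 9.59 CPM for Csf1r and 4.42 for C1qa. With the block the log2 changes were -4.24 for Csf1r (mean 0.327 CPM in High, 6.22 in Low), -3.83 for C1qa (0.172 and 2.77), -3.30 for Klrk1 (0.128 and 1.41), -3.20 for Klrb1c (0.158 and 1.37), -3.09 for Ncr1 (0.308 and 2.63) and -2.42 for Klrd1 (0.190 and 1.02). Their part in the Foxp3 and Ikzf4 differences was not tested. The B cell, cell cycle, myeloid, and CD8 T and NK sums were all highest in the 4 replicate 1 libraries. Without these libraries, the log2 changes were 0.45 for Foxp3 (edgeR adjusted p = 0.13 without and 0.00807 with the block) and 0.43 to 0.44 for Ikzf4 (0.409 and 0.00838).

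The genes most like each member were found by Pearson's r of log2 CPM over the 12 libraries. The mean of each replicate number was subtracted first. Compared were 8316 tested genes that averaged 10 CPM or more, leaving out predicted genes (Gm or Rik symbols) and identifiers without a symbol. The libraries share gates and scaling, so r describes the pattern and is given without a p. For Foxp3 they were Tnfrsf4, a costimulatory receptor of the TNF receptor family (r = 0.984), Dgat2, an enzyme of triglyceride synthesis (0.97), and Castor2 (0.966). For Ikzf4 they were Xxylt1 (0.982), Lrrc32 (0.972) and the carnitine transporter gene Slc22a5 (0.972). Ikzf4 ranked 28 among the genes most like Foxp3 (r = 0.934), and Foxp3 ranked 46 for Ikzf4. The other 4 ranked far lower for Foxp3, at 3413 (Ikzf2, r = 0.106), 4524 (Ikzf3, -0.0505), 4570 (Ikzf5, -0.0565) and 7404 (Ikzf1, -0.556). Without that subtraction r of Tnfrsf4 with Foxp3 was 0.509 and that of Ikzf4 0.876.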

How the data were processed

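RNA was measured in 12 libraries. Per the labels' protocols, cDNA came from 10 ng of RNA by the SMARTer Ultra Low chemistry, which does not mark strand. The authors deposited raw gene counts, whole numbers for Ensembl identifiers. The submitters' processing notes name featureCounts 1.4.6, STAR 2.4, CASAVA 1.8.2 and the GRCm38 build, and the sources used here give no settings. Symbols were matched for 21628 of 21839 genes.

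Counts were tested with edgeR 4.0.16 in R 4.3.3 (TMM, filterByExpr with minimum count 10, which kept 11766 genes and 99.96% of counts, robust quasi-likelihood fits over the 4 groups, Benjamini-Hochberg at 0.05 over all tested genes). The 7 comparisons were the gate in each genotype and averaged, the genotype in each gate and averaged, and their interaction. Intervals are normal 95% intervals from the SE, and apart from the block they treat all libraries as independent. Alternatives were the block, DESeq2 1.42.0, other scalings, no filter, fits of 2 groups and omission of libraries. Log2 ratios used a pseudocount of 0.5 CPM. The fits were also run on simulated counts with a gate effect and no effect of replicate number, so that run cannot judge the choice of the block.

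The replicate numbers were taken as pairs from the data, since the labels do not say what they mark. Deviations from group means correlated at 0.34 to 0.83 between same-numbered libraries of different groups (18 pairs) and at -0.688 to 0.197 between others (36 pairs). Depth limits little here: the lowest count of a member, for Ikzf5 in the shallowest library, was 183. Errors come from the spread between libraries, since reads without molecular identifiers are not independent molecules. All members are described; other genes named are the 3 most like each member and up to 4 called genes per list with the smallest p, beside Il2ra and genes whose exons overlap a member. The members, lists and comparisons were chosen with earlier results of these data known. Mitochondrially encoded genes were not analysed here.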

Additional observations from a re-analysis of the deposited data

How the results depend on the processing

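Foxp3 and Ikzf4 kept their direction in the gate comparisons under every scaling, filter, tool and omission tried. Over both genotypes Foxp3 lay between 0.43 and 0.51 and Ikzf4 between 0.43 and 0.56 in log2. Members called in that comparison numbered 2, and 0 to 2 over omissions. Without the block the smallest counts came from leaving out all 4 libraries of a number (0 called; Foxp3 adjusted p = 0.0717 to 0.365, edgeR), and with the block 2 were called in all 15 omissions. Within WT and within TG, 0 members were called without the block, and 2 in each with the replicate block, with DESeq2 and with DESeq2 and the block; over omissions, blocked ones included, the count ran from 0 to 2 in each. Leaving out the libraries numbered 1 ended the blocked Foxp3 and Ikzf4 calls in WT (adjusted p = 0.0928 and 0.0646) and in TG (0.251 and 0.379), and leaving out those numbered 3 in TG (0.123 and 0.0601); fewer samples enter those fits. The replicate number test called 2 members and 1 to 2 over omissions. All genes called over both genotypes numbered 61 (edgeR), 692 (block), 256 (DESeq2) and 830 (DESeq2 with the block), and the block changed no genotype call of a member. Within WT they numbered 6, 192, 46 and 281 in the same order, and within TG 1, 198, 63 and 358. The longest coding transcript in place of the exon union moved Ikzf3 per kilobase from 13.7 to 32.7.

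Changes near 0 turned sign without any of them passing a threshold. Other than by omissions, these were Ikzf2 between gates over both genotypes (0.04 with the block, in edgeR and in DESeq2), Ikzf3 between gates in TG (-0.01 with upper quartile scaling) and Ikzf3 for genotype in High (0.00 in DESeq2 with the block). Over omissions the gate change ranged in WT from -0.07 to 0.40 (Ikzf2), -0.20 to 0.05 (Ikzf3) and -0.10 to 0.12 (Ikzf5). In TG it ranged from -0.09 to 0.06 (Ikzf1), -0.42 to 0.20 (Ikzf2), -0.10 to 0.16 (Ikzf3) and -0.07 to 0.13 (Ikzf5), and over both from -0.18 to 0.27 (Ikzf2), -0.09 to 0.04 (Ikzf3) and -0.04 to 0.12 (Ikzf5). The genotype change in High ranged from -0.10 to 0.08 (Foxp3), -0.04 to 0.09 (Ikzf1), -0.13 to 0.08 (Ikzf3) and -0.04 to 0.18 (Ikzf5). In Low it ranged from -0.13 to 0.04 (Ikzf1), -0.24 to 0.41 (Ikzf2), -0.24 to 0.02 (Ikzf3), -0.05 to 0.15 (Ikzf4) and -0.10 to 0.14 (Ikzf5). Over both gates it ranged from -0.03 to 0.12 (Foxp3), -0.08 to 0.06 (Ikzf1), -0.23 to 0.08 (Ikzf2), -0.13 to 0.01 (Ikzf3), -0.07 to 0.03 (Ikzf4) and -0.07 to 0.14 (Ikzf5), and the interaction from -0.73 to 0.02 (Ikzf2), -0.03 to 0.23 (Ikzf3) and -0.09 to 0.15 (Ikzf5). The Ikzf4 to Foxp3 ratio ranged from -0.02 to 0.09. The cause of these shifts was not tested.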

Other observations

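Other genes followed the members that did not differ between gates. After the mean of each replicate number was subtracted, those most like Ikzf1 over the 12 libraries were Def8 (r = 0.914), Kbtbd7 (0.872) and Ptbp2 (0.863), a splicing regulator gene, with r of 0.298, 0.848 and 0.907 without the subtraction. Those most like Ikzf2 were Zfp330 (0.932), Vhl (0.854), which encodes a subunit of the ubiquitin ligase for hypoxia-inducible factors, and Coq10b (0.839), with r of 0.413, 0.54 and 0.501 without it. Naa60 (0.907), Pigq (0.847) and Dnajc30 (0.844) were most like Ikzf3, though without the subtraction their r with it was -0.127, 0.0367 and -0.321. Blcap (0.957), Zbtb1 (0.927), a zinc finger gene of lymphocyte development, and Rsrp1 (0.896) were most like Ikzf5, with r of 0.888, 0.86 and 0.784 without it. With 8316 genes compared and 12 libraries, high values of r arise by selection, and they are given as description.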
